A study of Homo sapiens with 12 samples.

Results

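Long noncoding RNAs linked to inflammation were followed in HL-60/S4 cells, an established human myeloid leukemia line, after a short exposure to the cytokine TNF-α. There were 7 members, chosen by name: MIR155HG, MIR3142HG, NEAT1, MALAT1, ADAM7-AS1, LINC02701 and LUCAT1. Each was found by its Ensembl identifier among the 58288 genes of the count table, and 6 of the 7 had a count in any library. The names were proposed with TNF-α results of these data in view, so the responses of the members are given as a description, without p-values.

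Total RNA depleted of ribosomal RNA was sequenced from 12 libraries, 3 for each of 4 groups. Promyelocytes were undifferentiated HL-60/S4 cells, and granulocytes were the same line after 4 days in ATRA (all-trans retinoic acid, 1 µM), which drives granulocytic differentiation. Both forms were at passage 8 and received 16 ng/ml TNF-α or water for 2 h in calcium-supplemented medium, each library coming from its own flask. Since the granulocytes formed an experiment of their own, cell type and experiment cannot be told apart, and all cells stem from 1 cell line.

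Library totals ranged from 22829189 to 31895061 read pairs assigned to genes. Of the genes that TNF-α is known to switch on, NFKBIA, the inhibitor of NF-κB, rose by 3.91 on the log2 scale in promyelocytes (SE 0.064) and by 5.51 in granulocytes (SE 0.064), with adjusted p of 1.754e-19 and 3.367e-39 in edgeR's quasi-likelihood test. TNFAIP3, which ends NF-κB signaling, rose by 3.63 and 5.08, and TNF itself by 1.91 and 2.503. The 6 promyelocyte markers summed to between 7777 and 8614 CPM (read pairs of a gene scaled to the library size) in promyelocytes with vehicle and between 2245 and 2463 CPM in granulocytes with vehicle, although ELANE, the neutrophil elastase gene, averaged only 1.79 CPM in the promyelocytes. The 9 granulocytic markers summed to 296 to 315 CPM and to 5198 to 5468 CPM in the same groups. With TNF-α the granulocytic sum stood at 368 to 383 CPM in promyelocytes and at 5665 to 6037 CPM in granulocytes; the part of this in the responses below was not tested. MARCO (macrophage), HBB and HBA1 (erythroid), MS4A1 (B cell), and COL3A1 and DCN (fibroblast) had no count in any group. The macrophage gene VSIG4 averaged 51.6 CPM in granulocytes with vehicle and 39.9 CPM with TNF-α, and fibroblast COL1A1 0.0454 and 0.571 CPM in promyelocytes.

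A long noncoding RNA is a transcript that is not translated and acts as RNA, or through the act of its own transcription. MIR155HG and MIR3142HG are microRNA host genes: their transcripts hold the precursors of miR-155, and of miR-146a and miR-3142. miR-155 is known as a microRNA that promotes inflammation in myeloid cells, and miR-146a as one that restrains the signaling that leads to NF-κB. NEAT1 and MALAT1 are abundant nuclear RNAs transcribed from neighboring genes. NEAT1 is the scaffold of paraspeckles, and MALAT1 is found at nuclear speckles, where splicing factors gather. LUCAT1 has been described as a brake on interferon responses in myeloid cells.

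The mature microRNAs that the 2 host genes carry are shown because the libraries could measure the hosts but not these short products. RefSeq (GRCh38.p14) gave 5 mature sequences for the 3 microRNA genes, printed with U and with the seed, bases 2 to 8 from the 5′ end, in capitals. The 5 seeds were all different.
hsa-miR-155-5p: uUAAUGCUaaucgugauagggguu
hsa-miR-155-3p: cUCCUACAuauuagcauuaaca
hsa-miR-146a-5p: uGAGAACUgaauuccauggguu
hsa-miR-146a-3p: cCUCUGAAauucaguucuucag
hsa-miR-3142: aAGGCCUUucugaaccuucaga

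Promoter sequence, 250 bases before to 50 after the start of transcription, was found in RefSeq for 5 of the 7 members (MIR155HG, MIR3142HG, MALAT1, LINC02701 and LUCAT1). Motifs of 2 factors activated by TNF-α were searched on both strands. The degenerate κB motif of NF-κB occurred in 11.3% of 34796 promoters of this length, and the AP-1 motif TGANTCA in 7.73%. MIR3142HG was the member whose window held a κB match, GGGACTTTCC, starting 120 bases before its RefSeq start. AP-1 matches stood 60 bases before the RefSeq start in MIR155HG and 52 bases before it in LUCAT1. The RefSeq start of MIR155HG lies 236 bases after the start in the count table, so its match falls inside the span of the counted gene. No match of either motif was found in the LINC02701 window or in the 2 MALAT1 windows. The LINC02701 start in RefSeq lies 2304 bases from the start in the count table, so that window may not be the one used by the counted transcript. For 1 of the 2 MALAT1 windows the starts lie 1283 bases apart, with the same limit. The 3 windows with a match are printed 5′ to 3′ on the strand of the gene, with the match in capitals, since one belongs to a host gene that rose in both cell types, one to a gene that rose in granulocytes, and one to a gene without a count.
MIR3142HG, chr5:160468001-160468300, plus strand: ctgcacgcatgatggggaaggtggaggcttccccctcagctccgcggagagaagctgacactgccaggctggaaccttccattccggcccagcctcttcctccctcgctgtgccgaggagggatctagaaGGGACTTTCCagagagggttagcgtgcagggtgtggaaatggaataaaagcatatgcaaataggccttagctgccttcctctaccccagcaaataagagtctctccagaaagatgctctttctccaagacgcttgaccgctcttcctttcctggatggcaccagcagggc
LUCAT1, chr5:91314353-91314652, minus strand: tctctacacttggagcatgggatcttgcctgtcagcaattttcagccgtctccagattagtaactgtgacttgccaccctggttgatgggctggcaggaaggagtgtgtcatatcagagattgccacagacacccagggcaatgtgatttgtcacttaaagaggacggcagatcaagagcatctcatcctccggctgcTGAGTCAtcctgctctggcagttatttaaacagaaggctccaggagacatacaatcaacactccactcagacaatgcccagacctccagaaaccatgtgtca
MIR155HG, chr21:25561895-25562194, plus strand: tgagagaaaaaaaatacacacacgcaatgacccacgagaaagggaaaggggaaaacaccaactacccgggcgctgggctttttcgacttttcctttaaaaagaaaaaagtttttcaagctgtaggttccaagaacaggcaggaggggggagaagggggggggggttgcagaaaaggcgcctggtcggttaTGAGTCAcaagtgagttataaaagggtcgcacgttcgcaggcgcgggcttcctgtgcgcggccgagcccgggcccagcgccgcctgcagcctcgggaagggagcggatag

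MIR3142HG rose in both cell types and reached over 20 CPM with TNF-α in each. It lies on chromosome 5 (hg38, 160468268 to 160487426, plus strand, ENSG00000253522.5) with 2 exon blocks of 2301 bases in all. In promyelocytes it had 27, 42 and 26 counts with vehicle and 681, 692 and 675 with TNF-α, or 1.11 ± 0.378 and 23.9 ± 2.30 CPM (mean ± SD, n = 3). In granulocytes it had 8, 11 and 9 counts with vehicle and 493, 619 and 477 with TNF-α, or 0.324 ± 0.0343 and 22.0 ± 0.386 CPM. The groups did not overlap in either cell type. In bulk RNA, more cells expressing a gene and more RNA per cell cannot be told apart. The fitted log2 fold change was 4.46 (SE 0.16), a 22.0-fold rise, in promyelocytes and 6.05 (SE 0.16), a 66.0-fold rise, in granulocytes. The levels reached with TNF-α overlapped between the cell types, while every granulocyte library with vehicle was below every promyelocyte library with vehicle. The log2 difference between the responses was 1.62 (SE 0.31).

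The rows for the microRNAs themselves were read beside the host. MIR146A, whose 99 bases lie wholly on exons of MIR3142HG, and MIR155, whose 65 bases lie wholly on exons of MIR155HG, had no count in any library. Pairs that fall on 2 genes of the same strand are not counted by default, so a 0 in these rows does not measure the precursor. MIR3142 is a row of 82 bases in the intron of MIR3142HG. It had 2, 2 and 0 counts in promyelocytes with vehicle and 45, 37 and 24 with TNF-α, and 0 in all 3 granulocyte libraries with vehicle against 21, 28 and 22 with TNF-α. Per 100 host counts this was 4.21, 5.18, 0 and 4.47 counts in the same order of groups, so the row moved with its host. With TNF-α the granulocyte row was at least 28.2-fold higher against 3 counts over the group. RefSeq places the mature hsa-miR-3142 printed above at 160474492 to 160474513 of chromosome 5, past the end of the counted row (160474402 to 160474483), so the row does not cover that sequence. Unspliced host RNA and a microRNA precursor cannot be told apart in this row.

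MIR155HG was not detected. Its 1600 exon bases on chromosome 21 (25561909 to 25575168, plus strand, ENSG00000234883.5) received 0 counts in all 12 libraries, with and without TNF-α. A count of 0 allows up to 3 counts per library, or 0.0941 to 0.131 CPM at these depths. The other gene on its exons was MIR155, which covers 4.06% of them. Genes beside it were detected. The nearest tested one, the noncoding ENSG00000260583.1 7602 bases away, was not called in either cell type (log2 fold change 0.08, SE 0.31, and -0.21, SE 0.33), nor was MRPL39, a mitochondrial ribosomal protein gene 10488 bases away (0.12, SE 0.07, and 0.01, SE 0.08). Farther right, ATP5PF, an ATP synthase subunit gene, rose by 0.19 in granulocytes (edgeR adjusted p = 0.003239) and GABPA, a transcription factor gene, fell by 0.36 (adjusted p = 1.102e-06).

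**Figure D1:**
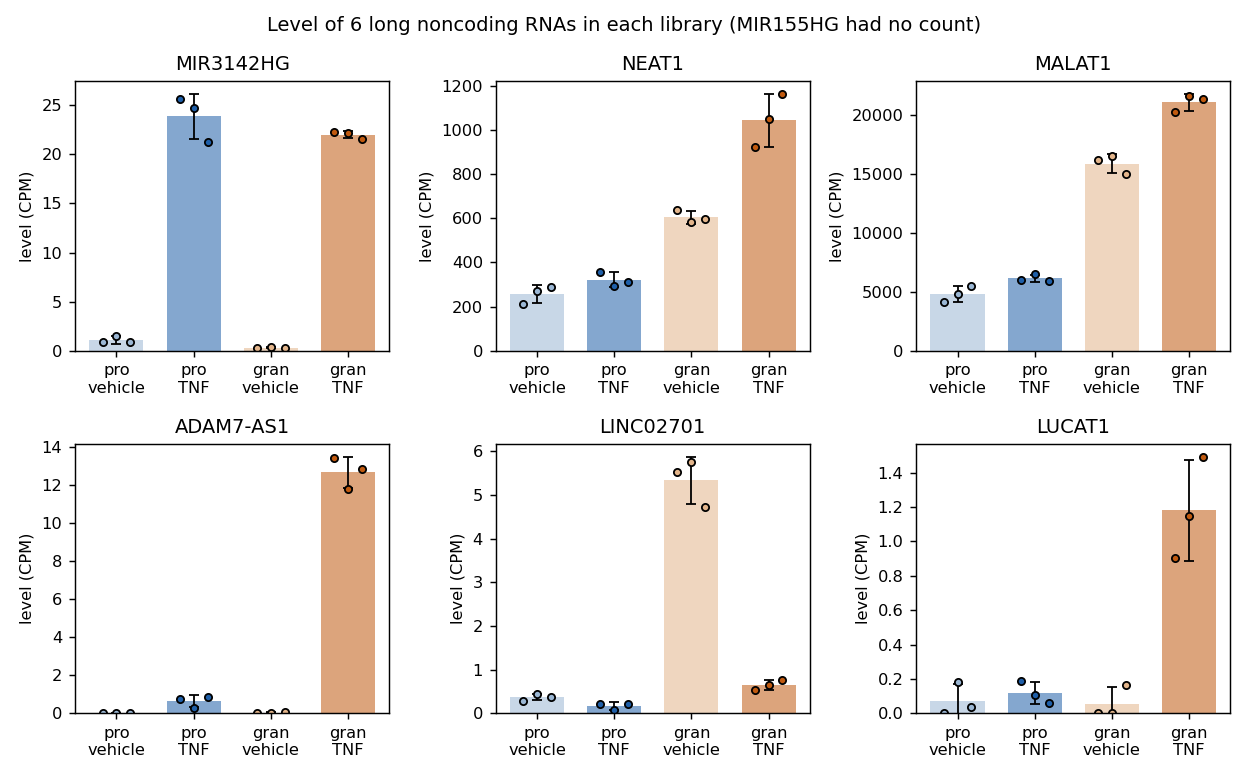
Level in CPM (y axis, linear, from 0) of the 6 detected long noncoding RNAs in each of the 4 groups (pro, promyelocyte; gran, granulocyte). Points are libraries, bars means and error bars SD (n = 3); MIR3142HG reached 23.9 and 22.0 CPM with TNF-α, and LINC02701 fell from 5.34 to 0.652 CPM in granulocytes.

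MALAT1 and NEAT1 were by far the most abundant members. Both lie on the plus strand of chromosome 11, each as 1 exon block: NEAT1 from 65422774 to 65445540 (ENSG00000245532.7, 22767 bases) and MALAT1 from 65497762 to 65506516 (ENSG00000251562.7, 8755 bases), 52222 bases apart. MALAT1 took 0.482% ± 0.0795 of all counts in promyelocytes with vehicle and 1.67% ± 0.0966 in granulocytes with vehicle. By CPM it ranked 10 and 2 among all genes in these groups, and 5 and 1 with TNF-α. Per kb of exon, MALAT1 in granulocytes with TNF-α stood at 2413 ± 80.8 CPM per kb against 45.8 ± 5.26 for NEAT1 and 9.56 ± 0.168 for MIR3142HG.

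NEAT1 rose modestly in both cell types. In promyelocytes it stood at 211, 270 and 287 CPM with vehicle and at 358, 291 and 312 CPM with TNF-α. The highest vehicle library and the lowest TNF-α library were nearly equal, and the log2 fold change was 0.35 (SE 0.094), a 1.27-fold rise. In granulocytes it stood at 638, 582 and 594 CPM with vehicle and at 921, 1047 and 1160 CPM with TNF-α, well apart. The log2 fold change there was 0.77 (SE 0.061), a 1.71-fold rise, and the log2 difference between the responses was 0.46 (SE 0.13). The promyelocyte call was lost without vehicle replicate 1 (log2 fold change 0.22), without TNF-α replicate 1 (0.26) and in DESeq2 (0.35).

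MALAT1 rose by a similar log2 amount in both cell types. In promyelocytes it stood at 4142, 4860 and 5465 CPM with vehicle and at 6043, 6489 and 5888 CPM with TNF-α. In granulocytes the levels were 16177, 16521 and 15013 CPM with vehicle and 20323, 21670.0 and 21370.3 CPM with TNF-α. The groups did not overlap in either cell type, and the log2 fold changes were 0.37 (SE 0.083) and 0.40 (SE 0.061). The difference between the responses, 0.06 (SE 0.10), was not called. It turned negative with plain library totals (-0.09), with no expression filter (-0.02) and without promyelocyte vehicle replicate 3 (-0.04). With GC and length trends removed it was 0.19 (SE 0.088, not called), from log2 fold changes of 0.32 in promyelocytes and 0.48 in granulocytes. Plain totals moved the median log2 fold change of all tested genes in granulocytes to -0.135, and on that scale MALAT1 rose by 0.27 and NEAT1 by 0.64 there.

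MALAT1 and NEAT1 together took 26.5% to 34.8% of lncRNA counts in the promyelocyte libraries and 54.0% to 62.9% in the granulocyte libraries. Their summed share of all counts was 0.508% ± 0.084 in promyelocytes with vehicle, 0.648% ± 0.030 with TNF-α, 1.74% ± 0.0979 in granulocytes with vehicle and 2.11% ± 0.115 with TNF-α. All other annotated lncRNAs held 1.23% ± 0.0548, 1.27% ± 0.0227, 1.42% ± 0.0282 and 1.27% ± 0.0456 in the same order. MALAT1 counts per NEAT1 count were 18.9 ± 0.815 and 19.3 ± 2.75 in promyelocytes, and 26.3 ± 1.76 and 20.4 ± 1.84 in granulocytes. In granulocytes the 3 ratios with TNF-α all lay below the 3 with vehicle. The 1 row on the opposite strand of the MALAT1 exons (ENSG00000270117.1, 396 bases, singled out after its values were seen) had between 1 and 10 counts per library, and TALAM1 was not analysed here. The mitochondrial share of counts, an index of RNA composition, was 6.16% to 6.28% in promyelocytes with vehicle and 5.71% to 5.86% with TNF-α, without overlap. In granulocytes it was 5.72% to 6.35% and 5.67% to 6.97%, with overlap, and its part in the rise of MALAT1 and NEAT1 was not tested.

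**Figure D2:**
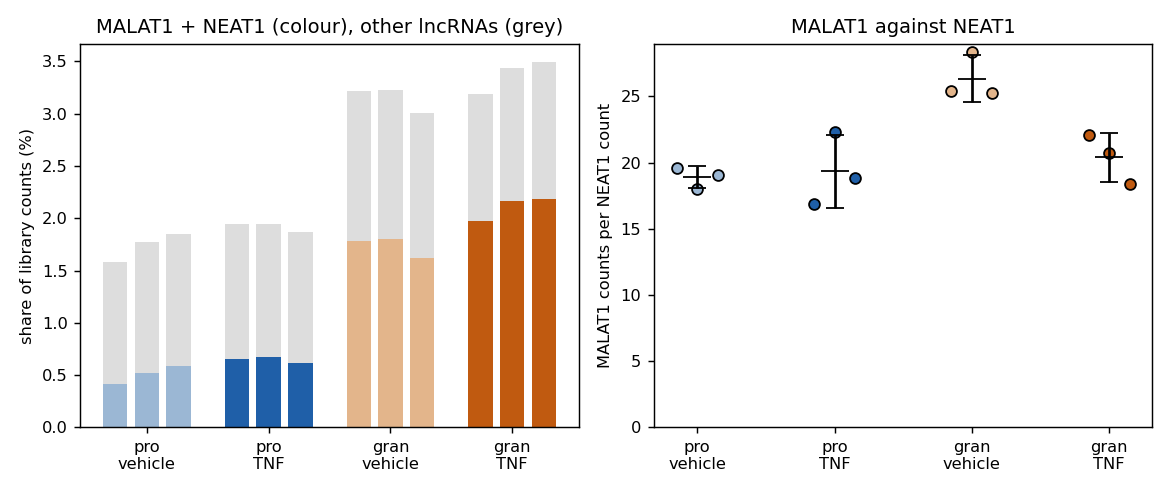
Left, share of library counts in percent for MALAT1 plus NEAT1 (colored) and all other annotated lncRNAs (grey), 1 bar per library. Right, MALAT1 counts per NEAT1 count, with points for libraries, a dash for the mean and bars for SD (n = 3); the ratio was 26.3 in granulocytes with vehicle and 20.4 with TNF-α.

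ADAM7-AS1 was near absent with vehicle and appeared with TNF-α, mainly in granulocytes. It lies on the minus strand of chromosome 8 (24295814 to 24912073, ENSG00000253535.5), with 1341 exon bases in 7 blocks spread over a span of 616260 bases. In granulocytes it had 0, 1 and 2 counts with vehicle and 297, 330 and 284 with TNF-α. Over the summed counts this was a ratio of 362 (95% exact counting interval 124 to 1759), and the fitted log2 fold change of 8.31 (SE 0.28) depends on the prior count. In promyelocytes it had 1, 0 and 0 counts with vehicle and 20, 8 and 28 with TNF-α, a ratio of 56.3 (9.70 to 2263). With TNF-α it reached 12.7 ± 0.813 CPM in granulocytes and 0.640 ± 0.314 CPM in promyelocytes, without overlap, while the vehicle libraries of the 2 cell types overlapped. The difference between the log2 responses was 2.99 (SE 2.43) and was not called. It was 1.17 without promyelocyte vehicle replicate 1, which held the 1 vehicle count, and 3.81 without granulocyte vehicle replicate 3, which also moved the granulocyte log2 fold change to 9.12; neither made the difference a call.

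The genes around ADAM7-AS1 moved unequally. It spans ADAM28, ADAMDEC1 and ADAM7, 3 metalloprotease-family genes on the opposite strand, and shares no exon base with a gene on either strand. ADAMDEC1 went from 0.365 ± 0.0985 to 9.54 ± 0.536 CPM in granulocytes, a log2 fold change of 4.70 (SE 0.21, edgeR adjusted p = 4.739e-21). In promyelocytes ADAMDEC1 had 0 counts with vehicle and 20 in all with TNF-α, at least 6.70-fold higher against 3 counts over the group. ADAM28 stood at 120 ± 4.12 CPM in granulocytes with vehicle and rose by 0.16 (SE 0.05, adjusted p = 0.007034), and ADAM7 had no count. The next tested gene on the left, the noncoding ENSG00000253891.1 on the minus strand 118734 bases away, had 0 counts in granulocytes with vehicle and 81 with TNF-α, at least 32.2-fold higher. On the right DOCK5, an activator of Rac, fell by 0.14 in granulocytes (adjusted p = 0.01459).

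LINC02701 was the member that fell. It lies on chromosome 11 (68870664 to 68874542, plus strand, ENSG00000250508.1), with 3252 exon bases. In granulocytes it had 144, 174 and 141 counts with vehicle and 12, 18 and 17 with TNF-α, or 5.34 ± 0.543 and 0.652 ± 0.113 CPM. The log2 fold change was -3.04 (SE 0.22), an 8.22-fold fall. LINC02701 was thus 12 from the largest decrease among 16944 tested genes and 4 among 2562 tested lncRNAs. As a member proposed with TNF-α results in view, it has ranks from which nothing is read. In promyelocytes it had 9, 12 and 11 counts with vehicle and 6, 2 and 7 with TNF-α, a ratio of 0.471 (0.237 to 0.896 by counting error alone), with no overlap of the CPM values. It did not pass the expression filter there. Without the filter its promyelocyte log2 fold change was -1.05 (SE 0.62), not called. In the 12-library fit it was -1.07 (SE 0.44), also not called. The log2 difference between the responses in the 12-library fit was -1.96 (SE 0.56) and was called. That call was lost without promyelocyte TNF-α replicate 1 (-1.76) and without promyelocyte TNF-α replicate 3 (-1.72). Its flanking gene CPT1A, which carries fatty acids into mitochondria, fell by 0.32 in promyelocytes (edgeR adjusted p = 0.001343) and by 0.48 in granulocytes (adjusted p = 3.636e-09). MRPL21 on the other side was not called (0.10, SE 0.07, and 0.04, SE 0.08).

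LUCAT1 was low in all groups and rose in granulocytes. It lies on chromosome 5 (91303029 to 91314402, minus strand, ENSG00000248323.5), with 2904 exon bases, of which 18.9% are shared with 1 other gene of the same strand and can lose counts. In granulocytes it had 0, 0 and 5 counts with vehicle and 20, 32 and 33 with TNF-α, a ratio of 20.3 (8.35 to 64.0 by counting error). All 5 vehicle counts came from replicate 3. Without that library the vehicle group stood at 0, TNF-α was at least 22.1-fold higher against 3 counts over the group. In promyelocytes LUCAT1 had 0, 5 and 1 counts with vehicle and 5, 3 and 2 with TNF-α, a ratio of 1.68 (0.552 to 5.61), and the groups overlapped. The log2 difference between the responses was 3.54 (SE 1.35), not called. It depended on single libraries: it fell to 1.74 (SE 2.49, not called) without promyelocyte vehicle replicate 2, which held 5 of the 6 vehicle counts there, and it was called without promyelocyte vehicle replicate 1 (4.13), promyelocyte TNF-α replicate 1 (3.99) or granulocyte vehicle replicate 3 (7.31, against a vehicle group at 0). Its neighbor ARRDC3, an arrestin-family gene 54322 bases away, fell by 0.40 in granulocytes (edgeR adjusted p = 0.001123), as did ARRDC3-AS1, by 0.75 (adjusted p = 0.002816).

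**Figure D3:**
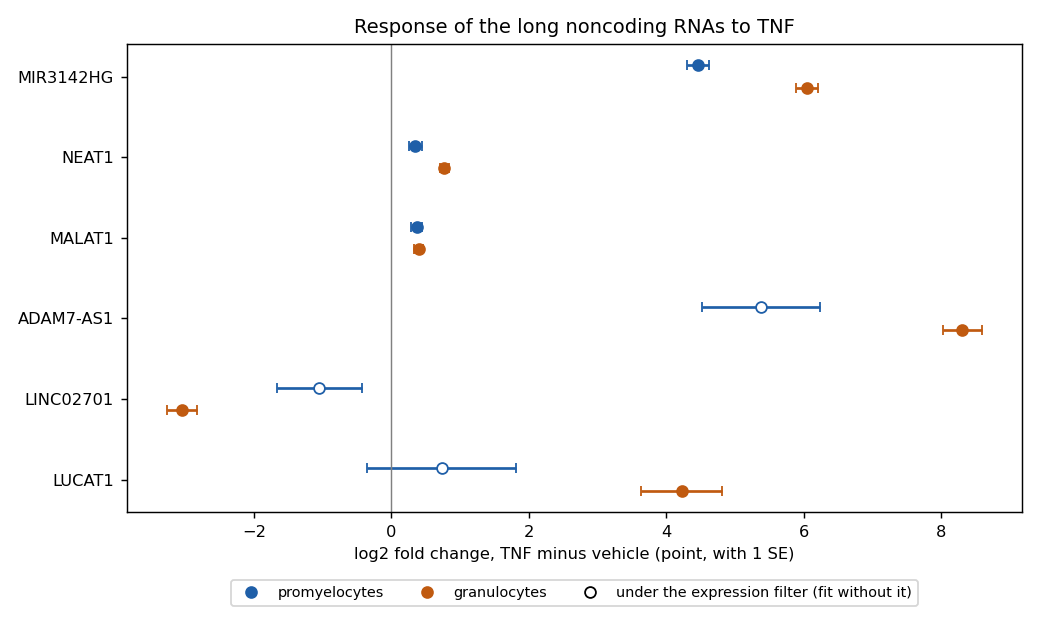
Log2 fold change with TNF-α (x axis; points, with bars of 1 SE) of the 6 detected members in promyelocytes (blue) and granulocytes (orange). Open points are members under the expression filter, from the fit without it; MIR3142HG stood at 4.46 and 6.05, and LINC02701 at -3.04 in granulocytes.

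In promyelocytes 3 members passed the expression filter, and all 3 were called higher at an adjusted p under 0.05, where 14.8% of the 16250 tested genes were called (8.15% higher and 6.65% lower). In granulocytes 6 passed, of which 5 were called higher and 1 lower, where 49.2% of 16944 were called (24.4% higher and 24.8% lower). MIR3142HG, ADAM7-AS1 and LUCAT1 passed there only through their TNF-α libraries, as the filter asks for 3 libraries at 0.376 CPM and 1 vehicle library of MIR3142HG and none of the other 2 members reached it. With plain totals 31.1% of the genes called in granulocytes were higher, against 49.6% with TMM. For the difference between the responses 3 of 6 were called (MIR3142HG, NEAT1 and LINC02701), 2 of them with the larger log2 response in granulocytes, where 24.0% of 18124 were called (14.1% higher and 9.88% lower in granulocytes). The higher ones were 58.9% of those calls with TMM, 48.4% with DESeq2 size factors and 30.8% with plain totals. Among all 7 members, all TNF-α libraries lay above all vehicle libraries for 4 in promyelocytes and 5 in granulocytes, and below them for 1 in each. Of all tested genes 13.7% and 28.4% lay above in this way, and 17.1% and 26.7% below. The promyelocyte member counts include ADAM7-AS1 (above) and LINC02701 (below), which were not among the tested genes there. The members were chosen with these contrasts in view, so nothing is read from their counts.

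The levels of the members with vehicle differed between the cell types in opposite directions. LINC02701 was 14.4 times, MALAT1 3.30 times and NEAT1 2.36 times as high in granulocytes as in promyelocytes, and MIR3142HG was 3.41 times as high in promyelocytes. In none of these 4 did the libraries overlap, and for ADAM7-AS1 and LUCAT1 they did. In order from low to high, NEAT1 and MALAT1 ran from promyelocytes with vehicle through promyelocytes with TNF-α and granulocytes with vehicle to granulocytes with TNF-α, with no overlap between neighbors in that order. LINC02701 ran from promyelocytes with TNF-α through promyelocytes with vehicle and granulocytes with TNF-α to granulocytes with vehicle, again without overlap.

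Over the 12 libraries, the genes with the most similar log2 CPM pattern were counted as a description, since the libraries share 4 groups and any gene that follows them scores high. For MIR3142HG they were TNF (Pearson's r 0.992), the receptor gene IL18R1 (0.990) and NCOA7 (0.989), among 12135 genes. For NEAT1 they were RASA1 (0.992), PRKCE (0.992) and ADAMTSL4-AS1 (0.991), and for MALAT1 ENSG00000276649.1 (0.995), R3HCC1L (0.995) and RESF1 (0.995). For ADAM7-AS1 they were PPP1R15A (0.993), ZMIZ2 (0.992) and MLLT6 (0.992). LINC02701 was closest to MBOAT1 (0.990), PARP4 (0.988) and MAP3K3 (0.986), and LUCAT1 to RALGAPA1P1 (0.952), MICAL3 (0.928) and REV1 (0.927). By Spearman's rho no member kept more than 1 of its 3 genes, so these names depend on the measure.

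Within 200 kb of the members lay 93 other genes. Of these 36 were tested in promyelocytes (5 higher, 6 lower) and 38 in granulocytes (18 higher, 10 lower). Over all tested genes 14.8% were called in promyelocytes (8.15% higher, 6.65% lower) and 49.2% in granulocytes (24.4% higher, 24.8% lower). The neighbors called higher in each cell type included MIR3142, which lies in the intron of its host MIR3142HG. The median log2 fold change of the neighbors was 0.01 and 0.20, against -0.01 and -0.00 for all tested genes. Near NEAT1 and MALAT1, CDC42EP2, an effector of the GTPase CDC42, rose by 0.81 in promyelocytes (edgeR adjusted p = 0.007498) and by 3.63 in granulocytes (adjusted p = 7.099e-17). TIGD3, at under 2 CPM, fell by 1.16 and 1.62 (adjusted p = 0.03084 and 0.0001381). LTBP3, which binds latent TGF-β, fell by 1.02 in promyelocytes (adjusted p = 0.01474) and was not called in granulocytes (0.49, SE 0.21). Closer by, FRMD8, left of NEAT1, fell by 0.24 in promyelocytes (adjusted p = 0.02845) and rose by 0.21 in granulocytes (adjusted p = 0.001925), and FAUP4 was not called in promyelocytes (-0.55, SE 0.47). Beside MIR3142HG, the securin gene PTTG1 rose by 0.22 (adjusted p = 0.01761) and 0.26 (adjusted p = 0.0007945). The splicing factor gene SLU7 rose by 0.24 in promyelocytes (adjusted p = 0.01843) and fell by 0.17 in granulocytes (adjusted p = 0.009972).

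**Figure D4:**
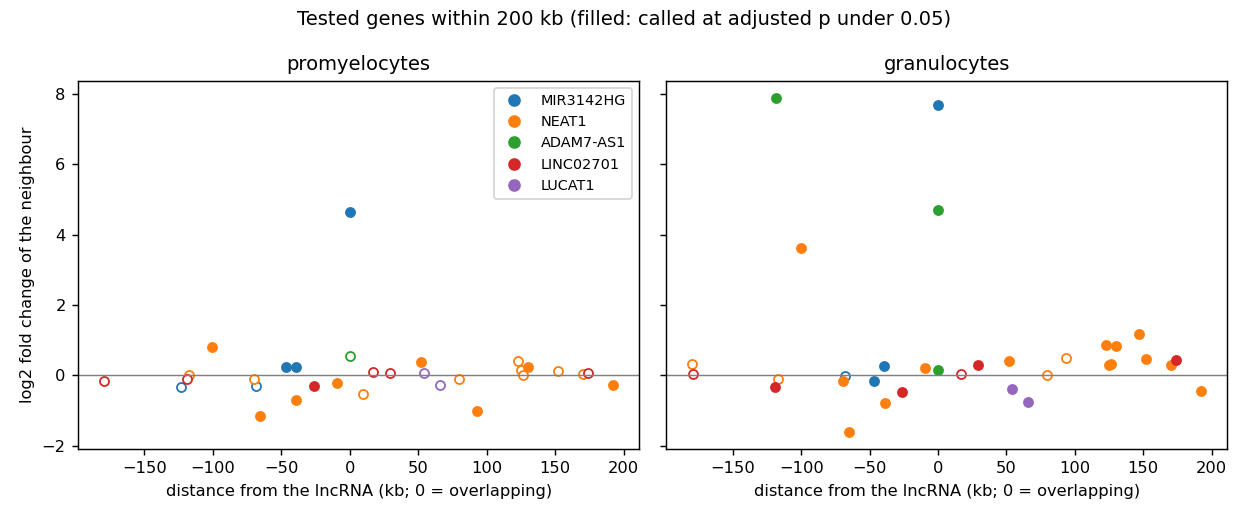
Log2 fold change with TNF-α (y axis) of tested genes within 200 kb of 5 members, by distance in kb (x axis, negative to the left, 0 for overlapping genes; no error bars), in promyelocytes (left) and granulocytes (right). Filled points were called; MALAT1 is plotted as a neighbor of NEAT1, and of the overlapping points at the top in granulocytes ADAMDEC1 stood at 4.70. The heights of MIR3142 and ENSG00000253891.1 there depend on the prior count, since both had 0 vehicle counts (at least 28.2-fold and 32.2-fold higher).

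Of the other long noncoding RNAs described in inflammation, 7.69% of those tested were called in promyelocytes and 40.0% in granulocytes, beside 14.8% and 49.2% of all tested genes. Of 25 listed, 13 were tested in promyelocytes, where 1 was called: GAS5, which can bind the glucocorticoid receptor, rose by 0.24 (edgeR adjusted p = 0.007906). In granulocytes 15 were tested, with 2 higher and 4 lower. LINC-PINT, a p53-induced RNA, rose by 0.92 (adjusted p = 4.802e-12) and CYTOR by 0.23 (adjusted p = 0.001306). HOTAIRM1, a myeloid RNA of the HOXA cluster, fell by 0.58 (adjusted p = 1.02e-07) and CHROMR by 0.27 (adjusted p = 0.006659). The median log2 fold changes were 0.04 and -0.00. Of all annotated lncRNAs, 7.26% of 2300 tested were called in promyelocytes and 34.0% of 2562 in granulocytes, against 18.5% of 11374 and 57.0% of 11676 protein-coding genes. Among tested lncRNAs, MIR3142HG ranked 3 from the largest increase in both cell types and ADAM7-AS1 ranked 1 in granulocytes. These members were proposed with TNF-α results in view and passed the granulocyte filter only through their TNF-α libraries. Nothing is therefore read from their ranks, and that of ADAM7-AS1 also depends on the prior count.

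Of 81 other microRNA host genes, 23 were tested in promyelocytes (5 higher, 3 lower) and 25 in granulocytes (9 higher, 7 lower). The called hosts were 34.8% and 64.0% of those tested, beside 14.8% and 49.2% of all tested genes. In promyelocytes MIR222HG, host of miR-221 and miR-222, rose from 28.2 ± 1.73 to 49.9 ± 1.23 CPM (log2 fold change 0.85, edgeR adjusted p = 1.536e-08), and MIR181A1HG rose by 0.71 (adjusted p = 1.791e-07). MIR646HG and MIR29B2CHG fell by 0.30 (adjusted p = 0.01311) and 0.24 (adjusted p = 0.01095). In granulocytes MIR23AHG rose by 1.87 (adjusted p = 7.234e-13) and MIR22HG by 1.44 (adjusted p = 1.798e-12), while MIR124-1HG fell by 1.61 (adjusted p = 4.485e-08) and MIR181A2HG by 1.5 (adjusted p = 1.402e-06). The median log2 fold changes of the tested hosts were -0.13 and 0.06.

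Of the genes named in the literature as targets of the hosted microRNAs, called miR-155 targets moved in both directions and called miR-146a targets only rose. Of the tested miR-155 targets 55.6% were called in promyelocytes and 88.9% in granulocytes, and of the miR-146a targets 80.0% in each. The shares over all tested genes were 14.8% and 49.2%, and the lists were chosen with earlier results of these data known. Of 9 tested miR-155 targets, 3 rose and 2 fell in promyelocytes, and 5 rose and 3 fell in granulocytes. SOCS1, a suppressor of cytokine signaling, rose by 2.83 in promyelocytes (edgeR adjusted p = 1.919e-08). IKBKE, a kinase of the innate immune response, rose by 1.14 (adjusted p = 1.367e-11) and 1.83 (adjusted p = 9.432e-28), and the myeloid factor SPI1 rose by 0.94 in granulocytes (adjusted p = 4.441e-17). INPP5D, a lipid phosphatase, fell by 0.33 (adjusted p = 0.000531) and 0.39 (adjusted p = 4.815e-08), and JARID2 by 0.20 (adjusted p = 0.022) and 0.54 (adjusted p = 6.213e-11). Of the 5 miR-146a targets, 4 rose in each cell type and 1 was not called. RELB, an NF-κB subunit, rose by 2.96 (adjusted p = 2.303e-16) and 4.01 (adjusted p = 1.07e-33), the chemokine receptor CXCR4 by 1.23 in promyelocytes (adjusted p = 2.044e-09) and the signaling adaptor TRAF6 by 0.32 in granulocytes (adjusted p = 7.515e-05). The median log2 fold changes were 0.19 and 0.24 for the miR-155 list, and 0.43 and 0.27 for the miR-146a list.

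Of the paraspeckle proteins 5.26% were called in promyelocytes and 52.6% in granulocytes, beside 14.8% and 49.2% of all tested genes. Of 19 tested, 1 was called in promyelocytes: PSPC1 rose by 0.18 (edgeR adjusted p = 0.0444). In granulocytes 9 rose and 1 fell, among them SFPQ (0.39, adjusted p = 1.672e-08), with RBMX lower by 0.16 (log2 fold change -0.16, adjusted p = 0.007838). The median log2 fold change of the list was 0.03 and 0.13. Of the 10 microRNA processing genes, 0 were called in promyelocytes by edgeR (0 also at an unadjusted p under 0.05 and 0 by DESeq2), and in granulocytes 80.0% were called, of which 4 rose and 4 fell. There AGO2, the slicing Argonaute, rose by 0.72 (adjusted p = 1.13e-14) and the exporter gene XPO5 by 0.40 (adjusted p = 8.833e-08), while AGO1 fell by 0.42 (adjusted p = 6.213e-09) and AGO4 by 0.38 (adjusted p = 1.365e-07).

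**Figure D5:**
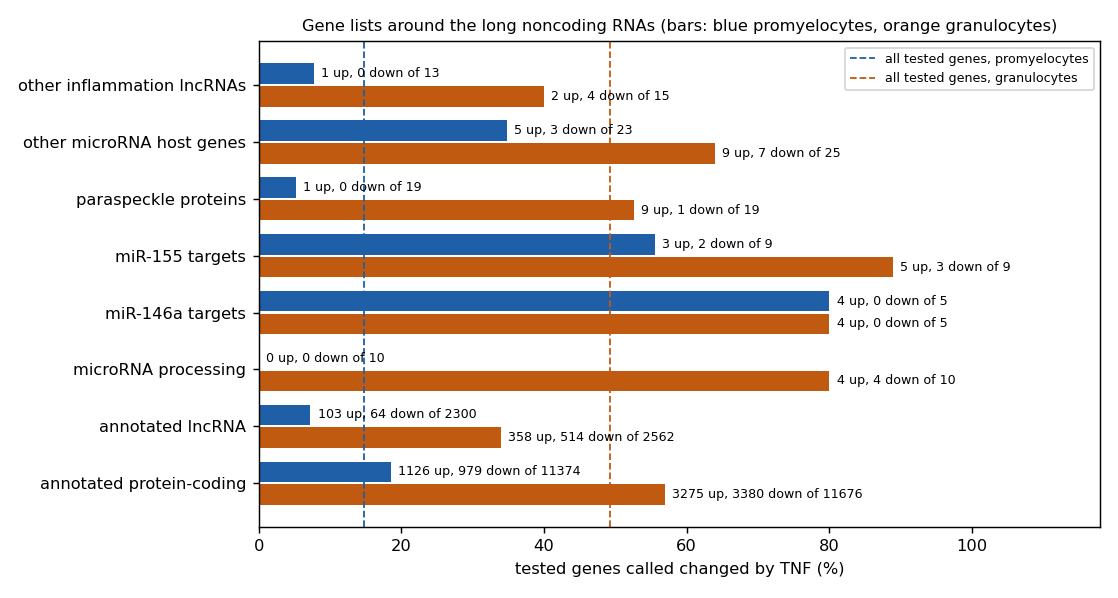
Share of tested genes called changed by TNF-α (x axis, percent) for each gene list in promyelocytes (blue) and granulocytes (orange), with the counts higher and lower beside each bar. Dashed lines mark the shares over all tested genes, 14.8% and 49.2%.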

How the data were processed

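RNA-seq of 12 HL-60/S4 libraries was analysed. The authors depleted ribosomal RNA, aligned paired reads to hg38 with STAR 2.5.3a and counted read pairs per gene with featureCounts 1.5.2 on GENCODE 27 (reverse strand, primary alignments), and deposited these raw counts and the exon lengths. Symbols were matched for 57577 of 58288 identifiers. Groups were taken from the labels.

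Separate fits for promyelocytes and granulocytes used edgeR 4.0.16 (TMM, filterByExpr with minimum count 10 and total 15, quasi-likelihood test, Benjamini-Hochberg, threshold 0.05), and the difference as the interaction over all 12 libraries. SE is the fold change over the root of F, and the prior count is 0.125. Folds come from these fits, while CPM used TMM sizes of the 12-library fit and are mean ± SD. Fits were tested on simulated data in which the changed genes averaged over 1 CPM. Of 100 genes changed by 1 (log2), 90 were recovered in promyelocytes and 91 in granulocytes. False calls made up 10 of 200 and 14 of 205 calls. Smaller changes, and changes at lower levels, were not simulated. Ratios of sums carry an exact binomial interval (counting error only, as reads are not independent molecules), against a floor of 3 counts. Read pairs from genes overlapping on 1 strand are dropped, and precision rests on 3 flasks per group.

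Members and lists were chosen with earlier results of these data known. Named genes were the members, their hosted microRNAs, the nearest tested gene on each side, overlapping genes, up to 2 called genes within 200 kb, the 2 largest called changes per direction and list (mean log2 CPM at least 1) and the 3 most correlated genes. Alternatives were other size factors (DESeq2 1.42.0), plain totals, no filter, DESeq2, a replicate block, 12 libraries in 1 fit, a threshold of 0.01, removal of GC and length trends, and leaving out each library. Some genes that this rule names are not reported here.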

Additional observations from a re-analysis of the deposited data

Results flagged for a closer look

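The TNF-α response differed between the cell types by the interaction test over 12 libraries for 3 members, all chosen with these responses known. The log2 difference, granulocyte minus promyelocyte, was 1.62 (SE 0.31) for MIR3142HG, 0.46 (SE 0.13) for NEAT1 and -1.96 (SE 0.56) for LINC02701. MIR3142HG kept its call under each of the 7 other settings and each of the 12 left-out libraries. NEAT1 lost it with plain library totals (0.31) and in DESeq2 (0.40), and LINC02701 lost it when either of 2 promyelocyte TNF-α libraries was left out. Cell type and experiment cannot be told apart here.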

How the results depend on the processing

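The number of members called was 3 in promyelocytes, 6 in granulocytes and 3 for the difference. Other settings gave 2 to 4, 6 and 2 to 4, and leaving out single libraries gave 2 to 4, 6 and 2 to 4. The replicate block left these counts at 3, 6 and 3. Same-numbered vehicle and TNF-α libraries did not deviate together (correlations -0.292 to -0.00862). With 3 libraries per group this cannot settle whether equal numbers mark libraries handled together. Over all genes the block called 1833 and 7721 against 2405 and 8344, and 3349 against 4351 for the difference. Without the filter, the promyelocyte fit also called ADAM7-AS1 (5.38, SE 0.86). Of the log2 values, 222 kept direction and call, 9 lost a call, 6 gained one, all for LUCAT1's difference, and 3 reversed, all for the uncalled MALAT1 difference: -0.0882 with plain library totals, -0.0200 with no expression filter and -0.0396 without promyelocyte vehicle replicate 3, with left-out libraries giving -0.0396 to 0.1595; the cause was not tested. Stricter calling at 0.01 took NEAT1 in promyelocytes and the LINC02701 difference below the threshold. The number of genes called in promyelocytes fell to 1438 at the 0.01 threshold and to 1598 without vehicle replicate 2. The difference over all genes held 2843 calls at 0.01, against 4351. Depth limits ADAM7-AS1, LINC02701 and LUCAT1 in promyelocytes, where libraries held at most 28, 12 and 5 counts.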
